A study of Saccharomyces cerevisiae with 4 samples.

Results

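The 10 genes described here encode the enzymes that make and break down trehalose and glycogen in budding yeast (Saccharomyces cerevisiae): TPS1, TPS2, TPS3, TSL1 and NTH1 for trehalose, and GSY1, GSY2, GLC3, GPH1 and GDB1 for glycogen. They were taken by their gene symbol in the array's annotation, with no regard to their values, and all 10 of them were found among the 5449 named genes, each read by 1 probe set. RNA was measured on 4 Affymetrix arrays, with 1 array of an ada1 deletion strain, 1 array of a gcn5 deletion strain and 2 arrays of wild type. All strains were BY4742, a haploid laboratory strain of mating type alpha that lacks functional HIS3, LEU2, LYS2 and URA3, and each deletion had been made by replacing the gene with the KanMX marker. All cultures grew at 30C in YPD, a rich medium with glucose, and were taken in exponential phase at an optical density of 0.7. The labels do not say whether the wild-type arrays came from separate cultures or whether a deletion strain was more than a single clone, so errors and p-values reflect no more than array-to-array spread, which may be technical.

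Trehalose is a disaccharide and glycogen a branched polymer of glucose, and both are reserves that yeast stores as growth slows. Tps1 joins UDP-glucose and glucose phosphate into trehalose phosphate, Tps2 removes the phosphate, Tps3 and Tsl1 are the large regulatory subunits that hold the complex together, and Nth1 is the neutral trehalase that splits trehalose again. Gsy1 and Gsy2 are the glycogen synthases, Glc3 adds the branches, Gph1 is the phosphorylase that releases glucose phosphate from the chain ends, and Gdb1 is the debranching enzyme. Transcripts of many of these genes are known to be held low by protein kinase A while glucose is plentiful and to be raised by the stress factors Msn2 and Msn4. Ada1 (gene HFI1) and Gcn5 both belong to SAGA, a coactivator complex that acts on promoters: Ada1 is a subunit that keeps the complex together and Gcn5 is its histone acetyltransferase.

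The deposited values are MAS5 signals on a linear scale, and signals of different probe sets were not read as a difference in level between genes. Changes relative to TPS1 and the summed signal of a list combine probe sets, and were used only to compare arrays. Median signals of the arrays were 413 to 525. The top signal was 21989 to 23746 on the ada1 deletion and first wild-type arrays and 11804 to 12244 on the other 2 arrays, so each deletion array is also set against the wild-type array with a similar top signal. HFI1 read 6.70 in the ada1 deletion strain and at least 246 elsewhere, and GCN5 read 3.28 in the gcn5 deletion strain and at least 309 elsewhere. LEU2, LYS2 and URA3 read at most 38.9, and the 6 a-specific genes read at most 111, below the background level of 166 on every array. The alpha-specific STE3 read 3645 and 3971 in wild type, 423 in the ada1 deletion strain and 517 in the gcn5 deletion strain, and of the 4 alpha-specific genes tested 4 and 3 were called lower in these strains (limma). HIS3 read 1517 to 1798, but the BY4742 allele is an internal deletion that the probes may lie outside, so it is no check.

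TSL1 was the gene of the 10 that passed the test in both strains, in opposite directions. It was 2.72-fold lower in the ada1 deletion strain and 2.31-fold higher in the gcn5 deletion strain. GLC3 rose 2.35-fold in the gcn5 deletion strain. TPS1 and TPS3 lay within 1.25-fold of wild type in both strains.

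**Figure D1:**
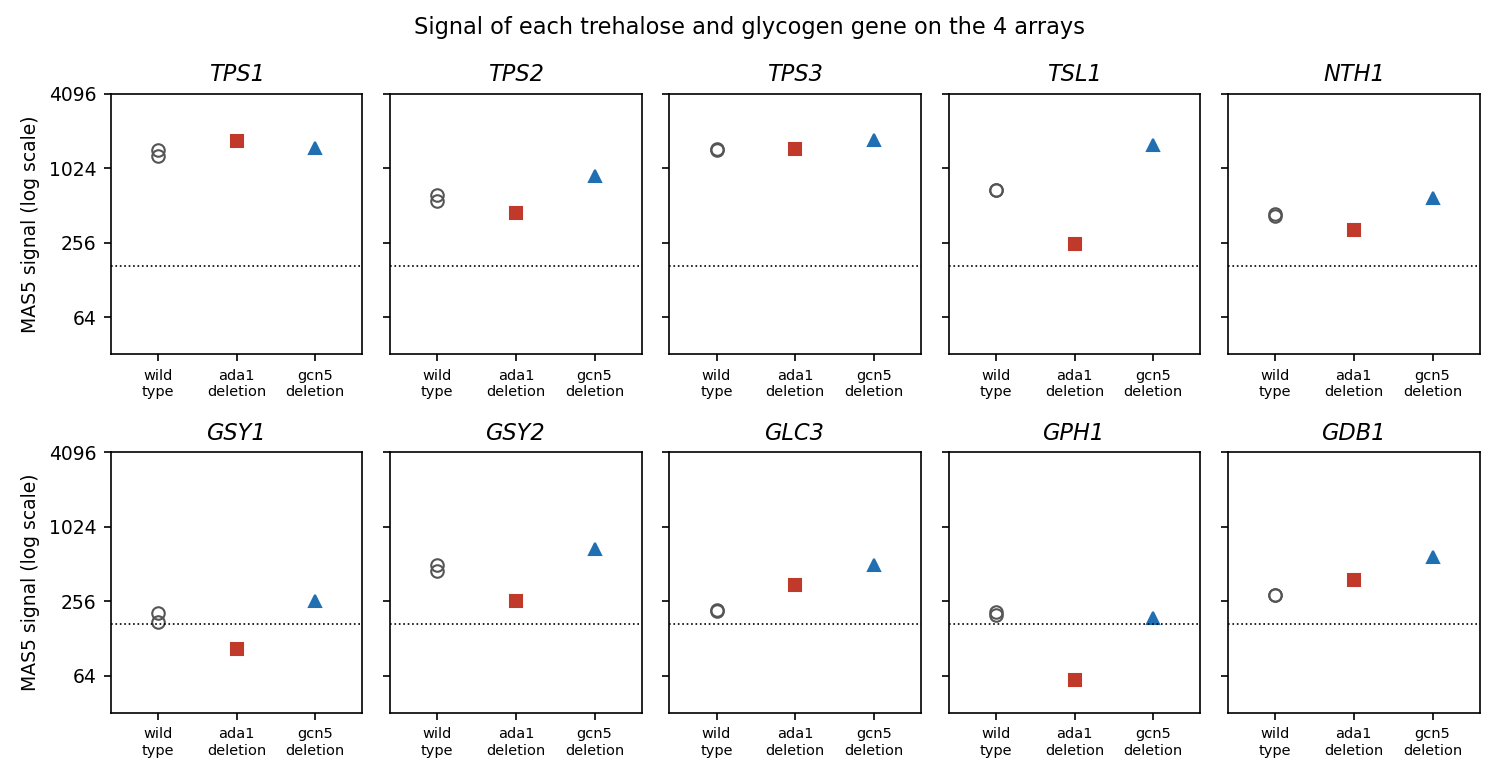
MAS5 signal (vertical axis, log scale) of each of the 10 genes in wild type (open circles, 2 arrays), the ada1 deletion strain (square, 1 array) and the gcn5 deletion strain (triangle, 1 array), with the background level of 166 dotted. TSL1 reads 249.7 in the ada1 deletion strain and 1570 in the gcn5 deletion strain, on either side of the wild-type pair at 683 and 674.

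Among the genes of trehalose synthesis, TPS1 read 1427 and 1277 in wild type, 1681 in the ada1 deletion strain and 1488 in the gcn5 deletion strain. Both deletion arrays lay above the wild-type pair. The log2 difference from wild type was 0.32 ± 0.22 SE (95% interval -0.11 to 0.74) in the ada1 deletion strain and 0.14 ± 0.22 SE (-0.29 to 0.57) in the gcn5 deletion strain, with adjusted p-values of 0.542 and 0.833 from limma over all 4541 genes tested. With the arrays scaled to a common median, the second of these values turned to -0.08, and against the wild-type array with a similar top signal it was 0.22.

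TPS3, a regulatory subunit, read 1462 and 1433.5 in wild type, 1456 in the ada1 deletion strain and 1715 in the gcn5 deletion strain. The ada1 deletion array lay between the wild-type arrays and was the only value of the 10 genes on either deletion array to do so. Its log2 difference was 0.01 ± 0.22 SE (95% interval -0.42 to 0.43, limma adjusted p = 0.994), and in the gcn5 deletion strain the difference was 0.24 ± 0.22 SE (-0.18 to 0.67, adjusted p = 0.656).

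TSL1, the other regulatory subunit, read 683 and 674 in wild type (SD 0.01 on the log2 scale, n = 2). It read 249.7 in the ada1 deletion strain and 1570 in the gcn5 deletion strain. The groups did not overlap, and the wild-type arrays lay between the deletion arrays. The log2 difference from wild type was -1.44 ± 0.31 SE in the ada1 deletion strain (limma adjusted p = 0.000120, and 0.00118 after quantile normalization) and 1.21 ± 0.31 SE in the gcn5 deletion strain (adjusted p = 0.00442, and 0.00995 after quantile normalization). By rank of the fitted difference, TSL1 stood 121st from the lowest of the 4541 genes in the first comparison and 39th from the highest in the second. Against the wild-type array with a similar top signal the difference was -1.45 in the ada1 deletion strain and 1.22 in the gcn5 deletion strain. When dim signals were raised to the background level, which left TSL1 itself at 1.21, its call in the gcn5 deletion strain ended (adjusted p = 0.0949, and 7.24e-05 to 0.0949 over the alternatives), while that in the ada1 deletion strain held under each alternative that gave a test (1.53e-10 to 0.0302).

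TPS2, the phosphatase of the complex, read 553 and 620.3 in wild type, 445 in the ada1 deletion strain and 889 in the gcn5 deletion strain. NTH1, the trehalase, read 422 and 435 in wild type, 322 in the ada1 deletion strain and 583 in the gcn5 deletion strain. Both genes thus gave their lowest signal in the ada1 deletion strain and their highest in the gcn5 deletion strain, in the same order as TSL1 but over a smaller range. Neither passed the test against wild type in either strain. The log2 differences of TPS2 were -0.40 ± 0.33 SE and 0.60 ± 0.33 SE in the ada1 and gcn5 deletion strains (limma adjusted p = 0.659 and 0.377). Those of NTH1 were -0.41 ± 0.39 SE and 0.45 ± 0.39 SE (adjusted p = 0.727 and 0.646).

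On the glycogen side, the synthase gene GSY2 read 445 and 497 in wild type, 257 in the ada1 deletion strain and 673 in the gcn5 deletion strain. GSY1, its paralog, read 173 and 206 in wild type, 105 in the ada1 deletion strain and 257 in the gcn5 deletion strain. For both genes the ada1 deletion array was the lowest and the gcn5 deletion array the highest, without overlap with the wild-type pair. The log2 difference of GSY2 was -0.87 ± 0.39 SE in the ada1 deletion strain (limma adjusted p = 0.188) and 0.52 ± 0.39 SE in the gcn5 deletion strain (adjusted p = 0.568). That of GSY1 was -0.84 ± 0.34 SE (adjusted p = 0.117) and 0.45 ± 0.34 SE (adjusted p = 0.573). The GSY1 signal in the ada1 deletion strain lay under the background level. Read against that level it was at least 1.14-fold lower than the wild-type mean, which is within the 1.19-fold range of the wild-type pair. With signals raised to the background level the log2 difference was -0.19, without a call. In the ada1 deletion strain both genes passed the test after quantile normalization (adjusted p = 0.0179 for GSY1 and 0.0123 for GSY2) and with a common median (0.00349 and 0.000935), at differences of -0.86 to -0.93. The labels do not say how far the probe sets of these similar genes cross-detect each other.

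The branching enzyme gene GLC3 read 216 and 213 in wild type, 346 in the ada1 deletion strain and 503 in the gcn5 deletion strain. Both deletion arrays were above wild type, unlike those of the synthase genes. GLC3 rose in the gcn5 deletion strain by a log2 difference of 1.23 ± 0.40 SE, just inside the threshold (limma adjusted p = 0.0479, and 0.0296 after quantile normalization), and ranked 31st from the highest of the genes tested. That call ended with signals raised to the background level (adjusted p = 0.0603, and 0.000360 to 0.0603 over the alternatives) at an unchanged difference. In the ada1 deletion strain the difference was 0.69 ± 0.40 SE (adjusted p = 0.417), which passed the test with a common median (0.0302).

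GDB1, the debranching enzyme gene, read 286 and 284 in wild type, 377 in the ada1 deletion strain and 575 in the gcn5 deletion strain. It followed the order of GLC3, with both deletion arrays above wild type. The log2 difference in the gcn5 deletion strain was 1.01 ± 0.40 SE, 85th from the highest, and missed the threshold (limma adjusted p = 0.147, and 0.0540 after quantile normalization). It passed with a common median (0.00752), without any filter (0.0378) and under a stricter filter (0.0185). In the ada1 deletion strain it was 0.40 ± 0.40 SE (adjusted p = 0.748).

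The phosphorylase gene GPH1 read 198 and 207 in wild type, 58.6 in the ada1 deletion strain and 185 in the gcn5 deletion strain. The ada1 deletion array stood apart from the other 3, and GPH1 was the single gene of the 10 with a lower signal than both wild-type arrays in the gcn5 deletion strain. Its low signal in the ada1 deletion strain put its mean under the background level, so it was left out of the test. The signal was at least 1.22-fold lower than the wild-type mean when read against the background level. With dim probe sets kept in, the log2 difference was -1.79 ± 0.42 SE in the ada1 deletion strain (limma adjusted p = 0.000570) and -0.13 ± 0.42 SE in the gcn5 deletion strain (adjusted p = 0.917), and a difference fitted at such a signal depends on values under the background level.

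**Figure D2:**
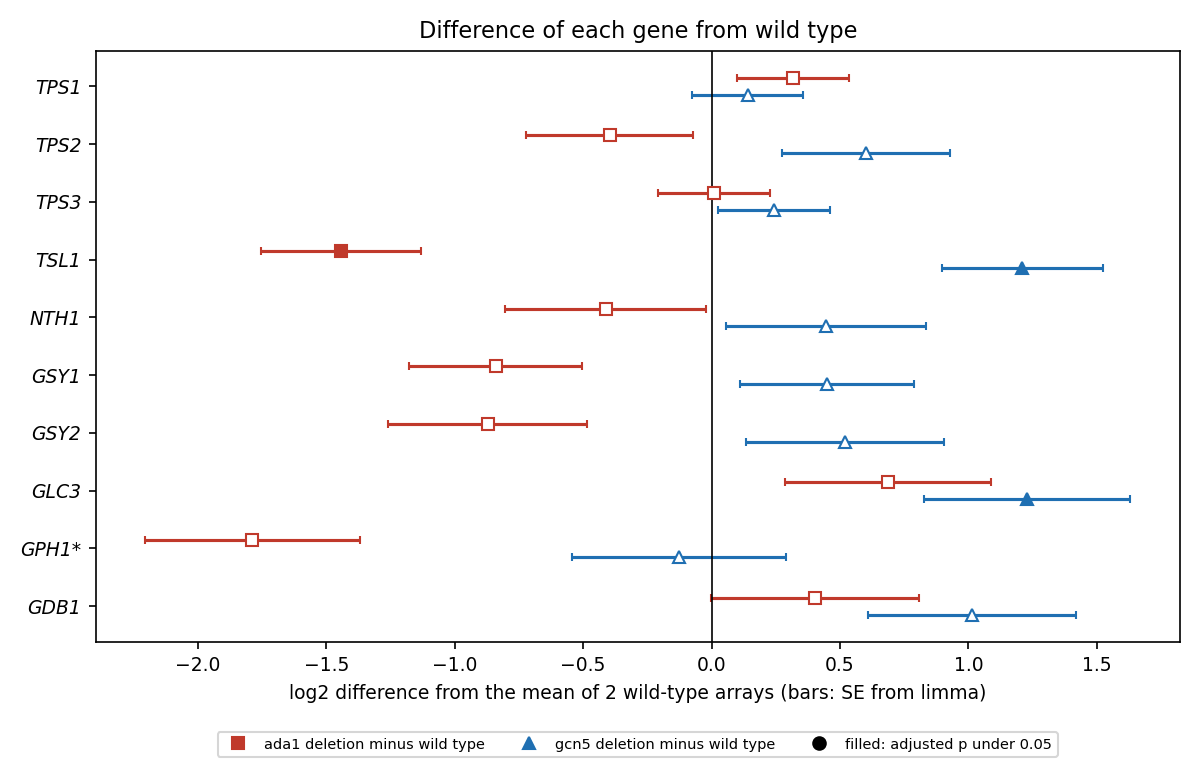
Log2 difference (horizontal axis) of each gene from the mean of the wild-type arrays in the ada1 deletion strain (squares) and the gcn5 deletion strain (triangles), with SE from limma as bars. Filled symbols mark TSL1 in both strains and GLC3 in the gcn5 deletion strain, the calls at an adjusted p under 0.05. The starred GPH1 was not tested, and its values come from the fit without the filter on dim probe sets.

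Counted over the genes, 1 of the 9 tested was called lower and none higher in the ada1 deletion strain (limma), where 5.70% of all genes tested were called lower, 2.73% higher and 8.43% in either direction. At an unadjusted p under 0.05 the number was 3 of 9. The share of all genes at that level was not counted, so this number cannot be read as an excess. Other settings called 1 to 4 of those tested, where they called 5.4% to 15.2% of all genes tested. In the gcn5 deletion strain 2 of 9 were called higher and none lower, where 2.11% of all genes tested were called higher, 2.53% lower and 4.65% in either direction. Other settings called 0 to 3, where they called 2.33% to 10.5% of all genes tested. The median log2 difference of the 9 genes was -0.40 in the ada1 deletion strain, beside 0.08 over all genes tested, and -0.19, beside 0.08, with signals raised to the background level. It was 0.52 in the gcn5 deletion strain, beside 0.15. After quantile normalization the gcn5 deletion median was 0.33, beside 0.03.

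The ada1 deletion array lay below both wild-type arrays for 6 of the 10 genes and above both for 3, TPS1, GLC3 and GDB1. Of all genes tested, 29.9% lay below both and 41.5% above both. The gcn5 deletion array lay above both for 9 of the 10, GPH1 being the exception, beside 53.1% of all genes tested above both and 24.9% below both. These comparisons share the wild-type arrays. For the 10 genes the wild-type signals differed from each other by 1.004-fold (GDB1) to 1.19-fold (GSY1), and the median absolute log2 difference between the wild-type arrays was 0.04 over the 9 tested and 0.26 over all genes tested.

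**Figure D3:**
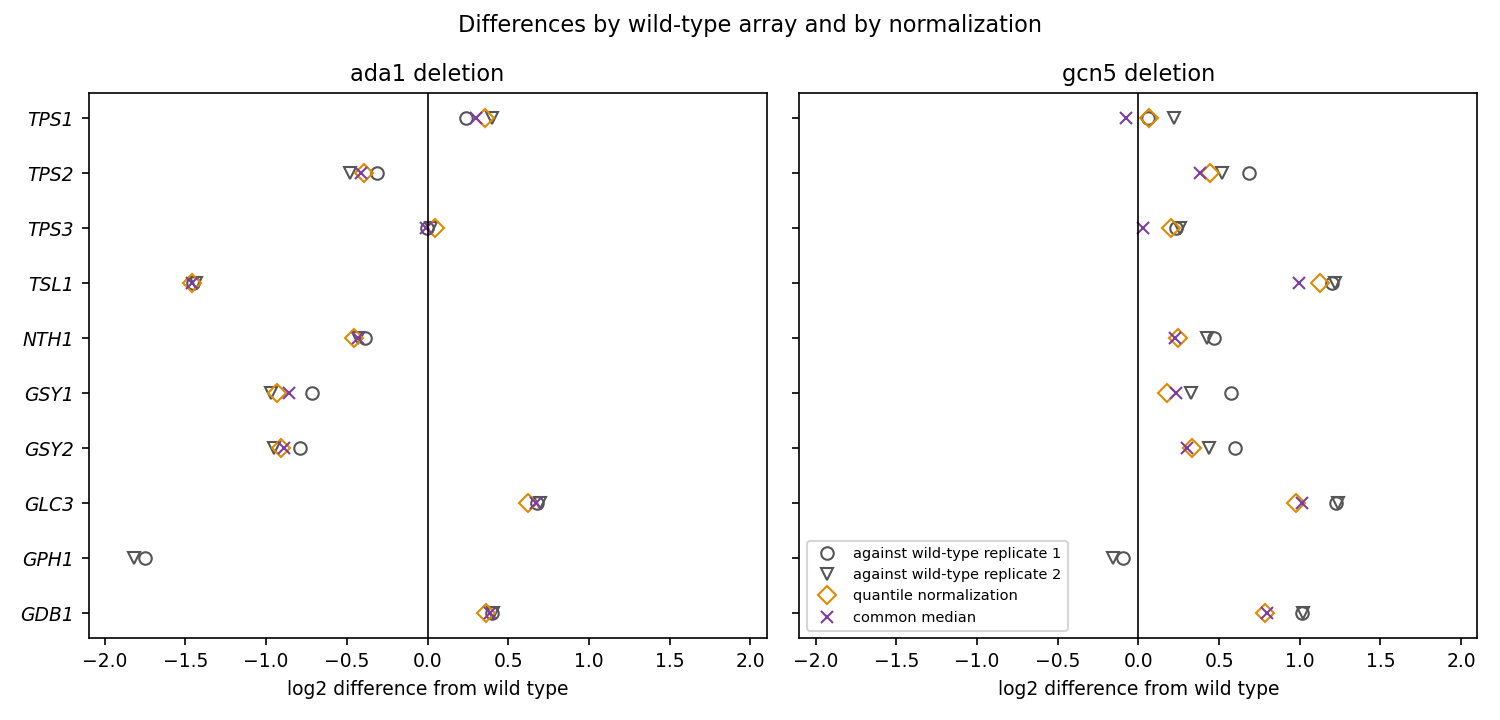
Log2 difference (horizontal axis) of each gene in the ada1 deletion strain (left) and the gcn5 deletion strain (right) against wild-type replicate 1 (circles), against wild-type replicate 2 (triangles), after quantile normalization (diamonds) and with a common median (crosses). TSL1 lies between -1.43 and -1.46 on the left and between 0.99 and 1.22 on the right. GPH1 has no diamond or cross because it was not tested there.

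Whether the strains differed from each other was tested directly, in a contrast that does not use the wild-type levels. The ada1 deletion strain was lower than the gcn5 deletion strain in 8 of the 9 genes tested. Over all genes tested the median log2 difference was -0.11, so most of them were lower too. With a common median that median was 0.09, and 8 of the 9 were still lower. Of the 9, 3 were called lower, beside 4.25% of all genes tested (6.25% in either direction). TSL1 was 6.29-fold lower (log2 difference -2.65 ± 0.36 SE, limma adjusted p = 2.40e-11, and 0.000155 after quantile normalization), 29th from the lowest of all genes tested. GSY2 was lower by a log2 difference of -1.39 ± 0.45 SE (adjusted p = 0.0331) and GSY1 by -1.29 ± 0.39 SE (0.0193). Read against the background level, GSY1 was at least 1.55-fold lower. GSY1 reached the background level on average only with its gcn5 deletion signal of 257 included. Its place among the genes tested, and so its call here, rests on the strain where it was high.

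TPS2 had a difference of -0.999 ± 0.38 SE in this contrast (adjusted p = 0.105), and passed after quantile normalization (0.0347), with a common median (0.0122) and without the filter (0.0394). The call of GSY1 ended without the filter (0.0728), with a robust prior (0.0656) and with signals raised to the background level (0.119, at a difference of -0.64). That of GSY2 ended with signals raised to the background level (0.156). GPH1, read without the filter, was lower by -1.66 ± 0.48 SE (0.0136) and at least 1.12-fold lower against the background level. GLC3 (-0.54 ± 0.46 SE), GDB1 (-0.61 ± 0.47 SE), NTH1 (-0.86 ± 0.45 SE) and TPS3 (-0.24 ± 0.25 SE) did not pass. TPS1 was the gene with the higher signal in the ada1 deletion strain (0.18 ± 0.25 SE). The median of the 9 genes was -0.86, beside -0.11 over all genes tested (-0.64 and -0.11 with signals raised to the background level), and the arrays compared differ in their signal range.

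Set against TPS1 on the same array, the other genes stood at unequal distances from wild type, which were not tested. This step removes a constant factor on a whole array, not a difference in signal range between arrays. Any shift of TPS1 itself enters every value. Relative to TPS1, and compared with wild type, TSL1 stood at a log2 difference of -1.76 in the ada1 deletion strain and at 1.07 in the gcn5 deletion strain. GLC3 stood at 0.37 and 1.09, GSY2 at -1.19 and 0.38, and GDB1 at 0.09 and 0.87, of which the first is within the difference between the wild-type arrays (-0.15). The wild-type arrays differed by -0.41 (GSY1) to -0.13 (TPS3) on this scale. With dim signals raised to the background level, GSY1 stood at -0.50 and GPH1 at -0.60 in the ada1 deletion strain.

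The profiles over the 4 arrays were compared by the Euclidean distance between log2 signals centred on each gene's mean. Signals under the background level were raised to it, which alters the distances of GSY1 and GPH1. TPS2 and NTH1 lay at 0.16, GLC3 and GDB1 at 0.25, TPS1 and TPS3 at 0.32, and TSL1 and TPS1 at 2.03. GSY1 and GSY2 lay at 0.62 on this reading and at 0.10 on the signals as deposited. Among the 4384 other named genes tested, those nearest to TSL1 were ICY1 (0.22), the glucokinase gene GLK1 (0.37) and BDF2 (0.52), which encodes a bromodomain protein. Those nearest to GLC3, ranked on the signals as deposited, were the mitochondrial chaperone gene HSP78 (0.15), YHI9 (0.18) and GGA1 (0.20). With 4 arrays these distances are a description.

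The sugar phosphates that feed both reserves come from hexose phosphorylation, phosphoglucomutase and UDP-glucose pyrophosphorylase. Of the 7 genes listed for these steps, all tested, 3 fell in the ada1 deletion strain and 1 rose in the gcn5 deletion strain. Of all genes tested, 5.70% and 2.11% did so. The median log2 differences of the 7 were -0.46 and 0.17, beside 0.08 and 0.15 over all genes tested. After quantile normalization they were -0.43 and 0.05, and under a stricter filter, with 6 tested, -0.14 and 0.02. HXK1, a hexokinase gene, read 1037 and 1294 in wild type, 259 in ada1 deletion cells and 1806 in gcn5 deletion cells. Its ada1 deletion log2 difference was -2.16 ± 0.26 SE (limma adjusted p = 3.78e-15, and 6.03e-05 after quantile normalization). GLK1 read 2028.5 and 2157 in wild type, 845 in ada1 deletion cells and 3781 in gcn5 deletion cells, with log2 differences of -1.31 ± 0.22 SE (adjusted p = 2.18e-07) and 0.85 ± 0.22 SE (0.00512). The rise of GLK1 lost its call with a common median (0.112), without the filter (0.0659), and with a single variance prior (0.256). PGM2, the main phosphoglucomutase gene, read 223 and 225 in wild type, 93.1 in ada1 deletion cells and 319 in gcn5 deletion cells. It was at least 1.35-fold lower in the ada1 deletion strain (adjusted p = 0.00674, and 0.263 with signals raised to the background level). The remaining 4, HXK2, EMI2, PGM1 and UGP1, had no call, and HXK1, GLK1 and PGM2 were also called lower in the ada1 than in the gcn5 deletion strain.

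Of the 6 other genes of trehalose and glycogen metabolism, 3 reached the background level on average and were tested. None was called in either strain (limma), with 0 and 1 at an unadjusted p under 0.05. Of all genes tested, 8.43% and 4.65% were called, and 3 genes are too few to set against these shares. The vacuolar acid trehalase gene ATH1 read 146 and 214 in wild type, 219 in ada1 deletion cells and 329 in gcn5 deletion cells, a log2 difference of 0.90 ± 0.37 SE in the latter (adjusted p = 0.169, and 0.0406 with a common median). The glycogenin gene GLG2 read 390.1 and 304 in wild type, 579.6 in ada1 deletion cells and 436 in gcn5 deletion cells. Its difference was 0.75 ± 0.39 SE in the ada1 deletion strain (adjusted p = 0.325, and 0.0108 with a common median). The glycogenin gene GLG1, the sporulation glucoamylase gene SGA1 and the sugar transporter gene MAL11 stayed under the background level on every array.

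The activity of glycogen synthase is set by the phosphatase Glc7 with its targeting subunits and by the kinase Pho85 with its cyclins. Of the 14 genes listed for this control, 11 were tested and none was called in either strain (limma), beside 8.43% and 4.65% of all genes tested. At an unadjusted p under 0.05 there was 1 in each. The median log2 differences of the 11 were 0.18 and 0.31 in the ada1 and gcn5 deletion strains, beside 0.08 and 0.15 over all genes tested. After quantile normalization they were 0.11 and 0.07, beside 0.05 and 0.03. PIG2, a putative targeting subunit, read 172 and 161 in wild type, with 334 in ada1 deletion cells (1.004 ± 0.36 SE, adjusted p = 0.0638). It passed the test after quantile normalization (0.0292), with a common median (0.000481), with signals raised to the background level (0.00777) and with an offset of 50 (0.0467). The cyclin gene PCL6 read 227 and 273 in wild type, with 408 in gcn5 deletion cells (0.71 ± 0.40 SE, adjusted p = 0.402).

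Of 27 measured genes of protein kinase A, Snf1 and stress signalling, 25 were tested, and 1 fell in ada1 deletion cells and 1 rose in gcn5 deletion cells, beside 5.70% of all genes tested called lower in the first and 2.11% called higher in the second. Other settings called up to 2 higher and 3 lower in the ada1 deletion strain and up to 2 in each direction in the gcn5 deletion strain. With a common median, which gave these counts, 6.52% of all genes tested were called higher and 8.72% lower in the ada1 deletion strain. The shares in the gcn5 deletion strain were 3.57% and 6.91%. RAS1, a GTPase gene upstream of adenylate cyclase, read 663 and 824 in wild type, with 205 in ada1 deletion cells and 716 in gcn5 deletion cells (ada1 deletion difference -1.85 ± 0.35 SE, limma adjusted p = 6.95e-06). DCS1, whose product acts on the trehalase Nth1 in yeast, read 475 and 495 in wild type, 644 in ada1 deletion cells and 1138 in gcn5 deletion cells (gcn5 deletion difference 1.23 ± 0.31 SE, adjusted p = 0.00392). That call ended with signals raised to the background level (0.0928). MSN2 read 358 and 451 in wild type, 247 in ada1 deletion cells and 515 in gcn5 deletion cells. It had no call as deposited (-0.70 ± 0.40 SE in the ada1 deletion strain, adjusted p = 0.395) but passed there after quantile normalization (0.0314) and with a common median (0.0138). MSN4 read 61.5 to 139, under the background level on every array.

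**Figure D4:**
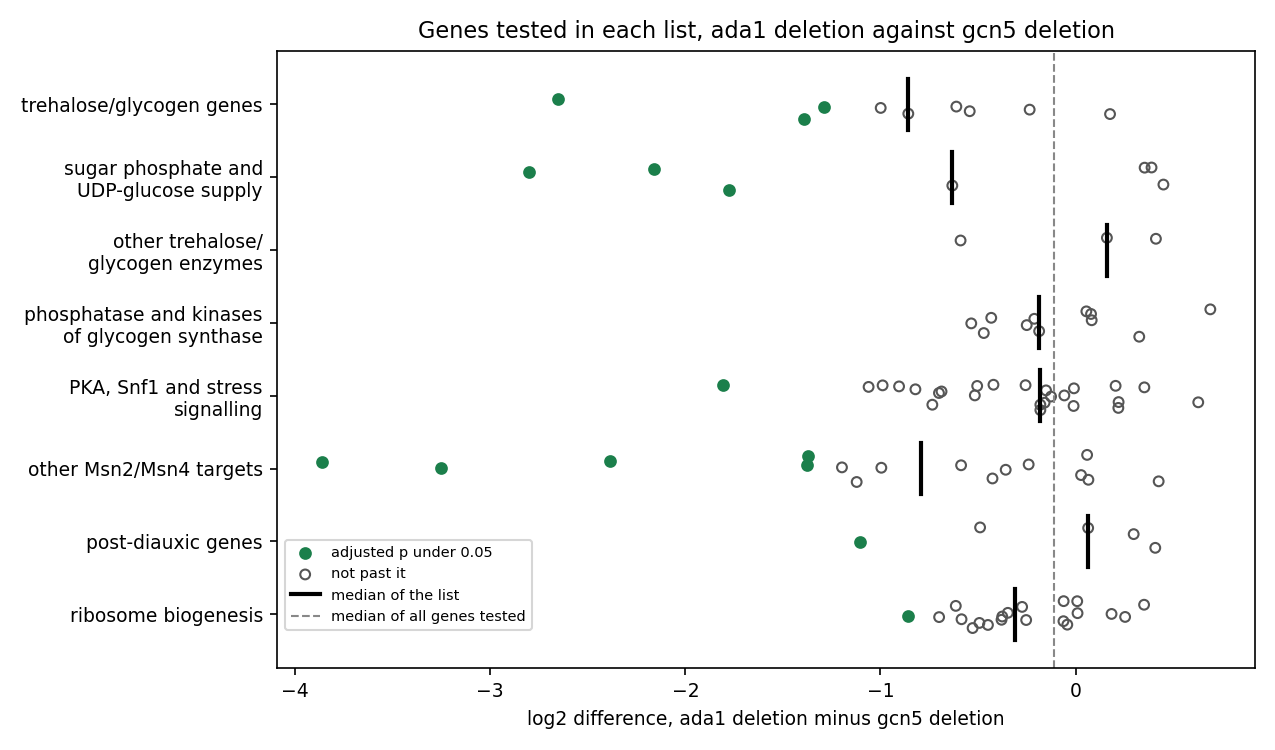
Log2 difference between the ada1 and the gcn5 deletion strain (horizontal axis, ada1 minus gcn5) of each tested gene in 8 lists, with genes at an adjusted p under 0.05 filled, the median of each list as a bar and the median of all genes tested (-0.11) dashed. The trehalose and glycogen genes have a median of -0.86, the sugar phosphate and UDP-glucose genes one of -0.63, and the other Msn2 and Msn4 targets one of -0.79. Under a stricter filter, not drawn, these medians were -0.86, -0.14 and -0.77. The vertical scatter within a list has no meaning.

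Other genes known as targets of Msn2 and Msn4 gave 5 falls in the ada1 deletion strain and 3 rises in the gcn5 deletion strain. These were of 16 tested from 24 listed, beside 5.70% and 2.11% of all genes tested. The median log2 differences of the list were -0.33 and 0.26, beside 0.08 and 0.15 over all genes tested. The sign of the ada1 deletion median depended on the filter. It was 0.15 without the filter (24 tested), -0.005 under a stricter filter (10 tested) and -0.14 with signals raised to the background level. With a common median the gcn5 deletion median was 0.04, and the calls became 3 higher and 6 lower in the ada1 deletion strain and 5 higher and 2 lower in the gcn5 deletion strain. At that setting 6.52% of all genes tested were called higher and 8.72% lower in the ada1 deletion strain. In the gcn5 deletion strain the shares were 3.57% and 6.91%. HSP12, a small membrane stress protein gene, read 586 and 337 in wild type, 125 in ada1 deletion cells and 1820.5 in gcn5 deletion cells, on either side of wild type as TSL1 was. The ada1 deletion signal was at least 2.68-fold lower than the wild-type mean, at a fitted log2 difference of -1.83 (limma adjusted p = 5.24e-05, and 0.112 with signals raised to the background level). HSP12 was 4.10-fold higher in the gcn5 deletion strain (limma adjusted p = 8.27e-06).

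ALD4, a mitochondrial aldehyde dehydrogenase gene, and HSP26, a small heat shock protein gene, complete the 3 rises. ALD4 read 1160 and 1215 in wild type, 749 in ada1 deletion cells and 1944 in gcn5 deletion cells, with calls in both strains and in the directions of TSL1 (log2 differences -0.66 ± 0.22 SE, limma adjusted p = 0.0392, and 0.71 ± 0.22 SE, 0.0381). Both calls ended without the filter (0.124 and 0.119), under a stricter filter (0.0584 and 0.0566), with signals raised to the background level (0.101 and 0.105), with a single variance prior (0.426 and 0.421) and with a robust prior (0.129 and 0.130), and the second also with a common median (0.131). HSP26 read 325 and 376 in wild type, 427 in ada1 deletion cells and 979.9 in gcn5 deletion cells, called in the latter (1.49 ± 0.38 SE, adjusted p = 0.00331) and not with signals raised to the background level (0.0880).

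The remaining called genes of this list, DDR2, SPI1 and PNC1, fell in the ada1 deletion strain. DDR2 read 518 and 377 in wild type and then 30.9 and 294 in the ada1 and gcn5 deletion strains. Its ada1 deletion signal was at least 2.67-fold lower than the wild-type mean. The fitted log2 difference was -3.84 (limma adjusted p = 5.39e-24, and 3.29e-05 after quantile normalization). SPI1, a cell wall protein gene, read 567 and 585 in wild type and then 164.5 and 358. Its ada1 deletion signal was at least 3.48-fold lower than the wild-type mean (limma adjusted p = 0.000213). The nicotinamidase gene PNC1 read 1794 and 1597.5 in wild type and then 348 and 1816. Its log2 difference was -2.28 ± 0.23 SE in the ada1 deletion strain (limma adjusted p = 2.13e-21, and 7.32e-05 after quantile normalization). In the gcn5 deletion strain the differences of these 3 genes were -0.59, -0.69 and 0.10, without a call as deposited, while DDR2 passed with a common median (0.00948) and SPI1 with a common median (0.00160) and after quantile normalization (0.0312).

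Because trehalose and glycogen genes are known to rise as glucose runs out, genes of the growth phase were read beside them. Of 17 genes repressed by glucose and induced after the diauxic shift, 11 stayed under the background level on every array. Of the 5 tested, 1 was called, ATO3, an ammonium export gene, which read 2232 and 2712 in wild type, 444 in ada1 deletion cells and 954 in gcn5 deletion cells. PCK1, a gluconeogenesis gene singled out after its values were seen, read 98.7 and 107 in wild type, 250.2 in ada1 deletion cells and 221 in gcn5 deletion cells, and was too dim on average to be tested. The log2 differences of ATO3 were -2.47 ± 0.22 SE (limma adjusted p = 3.35e-26) and -1.37 ± 0.22 SE (9.67e-08). After quantile normalization the limma adjusted p-values of ATO3 were 3.27e-05 and 0.00154. The summed signal of these 17 genes was 3009 in the ada1 deletion strain, 3303 in the gcn5 deletion strain, and 4116 and 4779 in wild type. Without ATO3 the order was the opposite, with 2565 and 2348 in the deletion strains and 1885 and 2067 in wild type. Of 20 ribosome biogenesis genes, which follow growth rate, 3 fell in the ada1 deletion strain (DBP2, NOG2 and NOG1, beside 5.70% of all genes tested) and none was called in the gcn5 deletion strain (3 at an unadjusted p under 0.05). Their median log2 differences were -0.20 and 0.09, and in the ada1 deletion strain -0.01 against wild-type replicate 1 and -0.30 against replicate 2. Over all genes tested the medians were 0.08 and 0.15, and in the ada1 deletion strain 0.15 and -0.02 against replicates 1 and 2. DBP2 kept a log2 difference of -1.05 ± 0.22 SE, called as deposited (adjusted p = 4.97e-05) and not with a single variance prior (0.0548), and the calls of NOG1 (0.0211) and NOG2 (0.00219) ended under that prior as well (0.386 and 0.200). With signals raised to the background level they ended too (0.0866 and 0.0824), as did that of NOG1 after quantile normalization (0.0639), without the filter (0.108) and with a robust prior (0.0623). The part of growth state in the values of the 10 genes was not tested.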

How the data were processed

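The deposited table gives a linear intensity, the MAS5 signal per the submitters' processing notes, for 5716 probe sets on each array. For MAS5, the version, the scaling target and any detection calls were not given in the sources used here. Of these probe sets, 5498 had 1 gene symbol, 0 had several and 218 had none. Every symbol found its entry in RefSeq (assembly R64), which updated 12 symbols. Where a gene had several probe sets (47 genes), the probe set of highest mean log2 signal was used. The 20th percentile of mean log2 signal, a signal of 166, served as background level, and 4541 of 5667 genes and unnamed probe sets at or above it were tested. A signal under it is given as a bound, "at least N-fold", with the wild-type mean (or the gcn5 deletion signal) over the background level. Such a bound holds for the wild-type mean and need not hold for each wild-type array. An adjusted p beside a bound is that of the fitted difference on the signals as deposited, unless another setting is named. Precision is limited by the number of arrays.

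The 3 groups were fitted together on log2 signal with limma 3.58.1 (R 4.3.3; lmFit, eBayes with a trend), with Benjamini-Hochberg adjustment over all genes tested and calls at an adjusted p under 0.05. The wild-type pair gave the only residual degree of freedom (1), and a lone deletion array is taken to vary like that pair. The prior degrees of freedom were infinite, so a gene took the spread of the trend, and genes of unusual spread have p-values that are too small. Intervals are the difference ± 1.96 SE. Counts at an unadjusted p under 0.05 are given without a share of all genes, so they cannot be read as an excess. Alternatives were quantile normalization, a common median, no filter, a filter at the 40th percentile, signals raised to the background level, an offset of 50, a single variance prior, a robust prior, the mean of probe sets and each wild-type array alone. All 10 genes are named, with up to 4 called genes of each related list by size of difference (or the 2 largest where none was called) and the 3 nearest profiles. Other genes named from a list, such as ALD4, HSP26, MSN2, MSN4 and PCK1, were chosen after their values were seen. The genes and lists were chosen with earlier results of these data known.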

Additional observations from a re-analysis of the deposited data

How the results depend on the processing

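Against the main counts of 1 gene lower in the ada1 deletion strain, 2 higher in the gcn5 deletion strain and 3 lower in the ada1 than in the gcn5 deletion strain, the counts moved as follows. In the ada1 deletion strain 3 were called lower after quantile normalization, 3 lower and 1 higher with a common median, and 2 lower without the filter. Of all genes tested, 8.35% were called lower after quantile normalization and 5.28% without the filter. With a common median 8.72% were called lower and 6.52% higher. With signals raised to the background level, 0 were called higher in the gcn5 deletion strain (limma, 4 at an unadjusted p under 0.05) and 1 lower between the strains. The shares of all genes tested were 1.12% and 2.09%. That setting left TSL1, GLC3 and GSY2 at the same difference and changed the prior degrees of freedom from infinite to 8.44. Over the 10 genes, 218 of the values tested under alternatives kept their direction and their side of the threshold, 11 passed it newly and 6 no longer passed. The other 2, TPS1 in gcn5 deletion cells and TPS3 in ada1 deletion cells with a common median, changed sign without a call. For named genes of the related lists, alternatives added after the data were seen gave 410, 16 and 17, and 1 changed sign without a call. In both tallies the direction was fixed in advance under the filters and the priors, which leave a difference unchanged. The mean of probe sets also leaves it unchanged for a gene read by 1 probe set, as all 10 genes are. Post-diauxic genes had up to 3 calls higher in ada1 deletion cells (of 17 without the filter, beside 2.7% of all genes tested). Ribosome biogenesis genes had 0 to 4 lower, with 4 of 20 under a stricter filter, beside 6.5% of all genes tested. The counts of all genes tested that were called rose from 383 to 656 in the ada1 deletion strain and from 211 to 326 in the gcn5 deletion strain after quantile normalization, and to 692 and 476 with a common median. Leaving out either wild-type array leaves no residual degree of freedom and gives values without a test, with medians of the 9 genes of -0.43 to -0.31 and 0.44 to 0.60 in the ada1 and gcn5 deletion strains. No paired analysis was possible because each deletion strain has 1 array.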

Other observations

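The genes next to the 10 on the chromosome, by the order of protein-coding genes in RefSeq assembly R64, were read as a description chosen after the data were seen. Of 20 neighbours 14 were tested, and none was called in either deletion strain (limma), beside 8.43% and 4.65% of all genes tested. UBC8, next to GLC3, had log2 differences of 0.25 and 0.89 in the ada1 and gcn5 deletion strains, and ATG13, next to GDB1, 0.59 and 0.74. SNF11, next to TPS2, had -0.68 and 0.61. Other neighbours differed in direction from the gene beside them. HSP60, next to GSY2, had 0.76 and -0.21, and DPM1, next to GDB1, had -0.02 and -0.34. CMK1, next to GSY1, had 0.32 in the ada1 deletion strain, where GSY1 had -0.84. Both neighbours of TSL1 were under the background level on average and were not tested.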
